A study of Rattus norvegicus with 4 samples.

Results

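The rat U34 array of set A carries 10 probe sets whose identifiers start with M13100 or X05472, the database entries of rat long interspersed repeat (LINE-1) sequence, among 8799 probe sets in all. They were taken by identifier alone, 7 from M13100 and 3 from X05472. As a group they were selected on the antibody-minus-control differences already seen on these same arrays, so that difference is described here for each probe set and not tested. Probe sets cut from 1 entry share a source sequence and are not independent measurements. The platform annotation pairs none of the 10 with a gene symbol. The sequences of the entries were not used here, so that these are LINE-1 sequences rests on their database entries. For X05472 this is the less certain, since that entry may be the terminal region of a rat repeat and not a complete element.

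LINE-1 elements are the main self-copying retrotransposons of mammalian genomes. A complete copy encodes an RNA-binding protein and a second protein with endonuclease and reverse transcriptase activity, and moves by copying its RNA back into DNA. Most copies are truncated and cannot move, yet pieces of them lie in the introns and untranslated regions of many genes, so a repeat probe can read both element transcripts and ordinary transcripts that contain a piece. In the male germ line the elements are kept silent by DNA methylation and by the piRNA pathway, in which small RNAs guide PIWI proteins to element transcripts. In the array's naming scheme, the ending _f_at marks a probe set that reads a sequence family and _s_at one whose probes match several transcripts.

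RNA came from the testis of male rats of the outbred Sprague Dawley strain. For 4 days the animals had been given either a sheep antibody directed at rat follicle-stimulating hormone (FSH) or, as controls, immunoglobulin (IgG) from sheep. FSH, from the pituitary, has its receptor on Sertoli cells, the somatic cells that nurse germ cells. Each treatment had 2 RNA samples, each on 1 array. The labels disagree on age. The treatment protocol has injections from day 18 and collection on day 22, the series design has the start at day 14, each source name gives day 18, and antibody replicate 2 is titled as postnatal day 4, so that its group rests on its source name. They also call each RNA sample a pool of about 20 organs, named there as ovaries, while each source name gives testis and 1 animal, so how many animals a replicate stands for is not settled.

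Each array's values had a common overall level as deposited. The median intensity lay between 36.5 and 40.4, and the largest gap between array medians on the log2 scale was 0.103. Of all probe sets, 5252 were bright enough to be tested. Markers of Sertoli, germ and Leydig cells were present, with intensities of 6440 to 7459 for the Sertoli cell product Clu, 574.2 to 922.3 for the meiotic gene Sycp3 and 1361 to 1730 for the androgen enzyme Cyp17a1. Of the ovarian genes, Zp3 was at 2.80 to 4.70, Cyp19a1 at 2.90 to 10.2, Zp1 at 37.5 to 69.9 and Zp2 at 84.5 to 103.8. Levels of different probe sets are not compared. Changes are given as antibody over control, or as log2 differences ± SE of log2(intensity + 16). The added 16 shrinks the changes of dim probe sets. The SE is the moderated value of limma, drawn toward the spread usual at that intensity over all tested probe sets. Where the arrays of a treatment differ widely, it is smaller than those arrays alone would give.

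The largest difference of the 10 was read by X05472cds#2_at. It read 50.5 and 83.5 intensity units in the controls against 930.9 and 342.9 after the antibody. Both antibody arrays stood far above both controls, but antibody replicate 1 was also 2.71 times antibody replicate 2. The group means were 67.0 ± 23.3 and 636.9 ± 416 (SD, n = 2 each), a ratio of 9.51. The log2 difference was 2.84 ± 0.39 (moderated SE). This was the highest log2 difference among the 5252 tested probe sets. In these bulk samples, more cells holding a transcript and more of it per cell cannot be told apart.

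The other probe sets of the same entry read smaller differences in the same direction. X05472cds#1_s_at had intensities of 44.8 and 61.2 in the controls and 188.2 and 92.4 after the antibody, a log2 difference of 1.12 ± 0.28. X05472cds#3_f_at had 21.2 and 27.8 in the controls and 69.8 and 58.0 after the antibody, a log2 difference of 0.98 ± 0.20. The groups did not overlap on either. The antibody arrays lay closest to each other on X05472cds#3_f_at, with a ratio of 1.20, against 2.04 on X05472cds#1_s_at.

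The M13100 entry is read by 7 probe sets, numbered by the coding stretches of the entry from #1 to #6, with a pair for the first. M13100cds#1_at was at 282.6 and 279.6 in the controls and at 592.5 and 458.5 after the antibody. The controls were nearly equal there and the groups lay well apart, with a mean ratio of 1.87 and a log2 difference of 0.85 ± 0.18. Its partner from the same stretch, M13100cds#1_g_at, was at 25.7 and 52.2 in the controls and at 128.5 and 60.5 after the antibody. There antibody replicate 2 was only 1.16 times the higher control, although the ratio of means was 2.43.

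The 2 _s_at probe sets of M13100 gave nearly the same picture. M13100cds#2_s_at was at 61.1 and 74.3 in the controls and at 158.5 and 109.1 after the antibody (0.82 ± 0.21). M13100cds#5_s_at was at 58.2 and 63.9 in the controls and at 138.8 and 94.4 after the antibody (0.76 ± 0.21). On both, antibody replicate 2 was about midway on the log scale between the higher control and antibody replicate 1.

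The 3 family probe sets of M13100 differed more among themselves. M13100cds#4_f_at had the largest difference of this entry, with 23.9 and 41.8 in the controls and 167.6 and 72.1 after the antibody (1.41 ± 0.33). M13100cds#3_f_at was at 62.8 and 77.8 in the controls and at 158.4 and 91.9 after the antibody (0.67 ± 0.24). M13100cds#6_f_at was the exception. Its controls were at 83.1 and 109.7 and its antibody arrays at 158.1 and 79.7, so antibody replicate 2 was the lowest of the 4 arrays and the groups overlapped (0.21 ± 0.27).

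**Figure D1:**
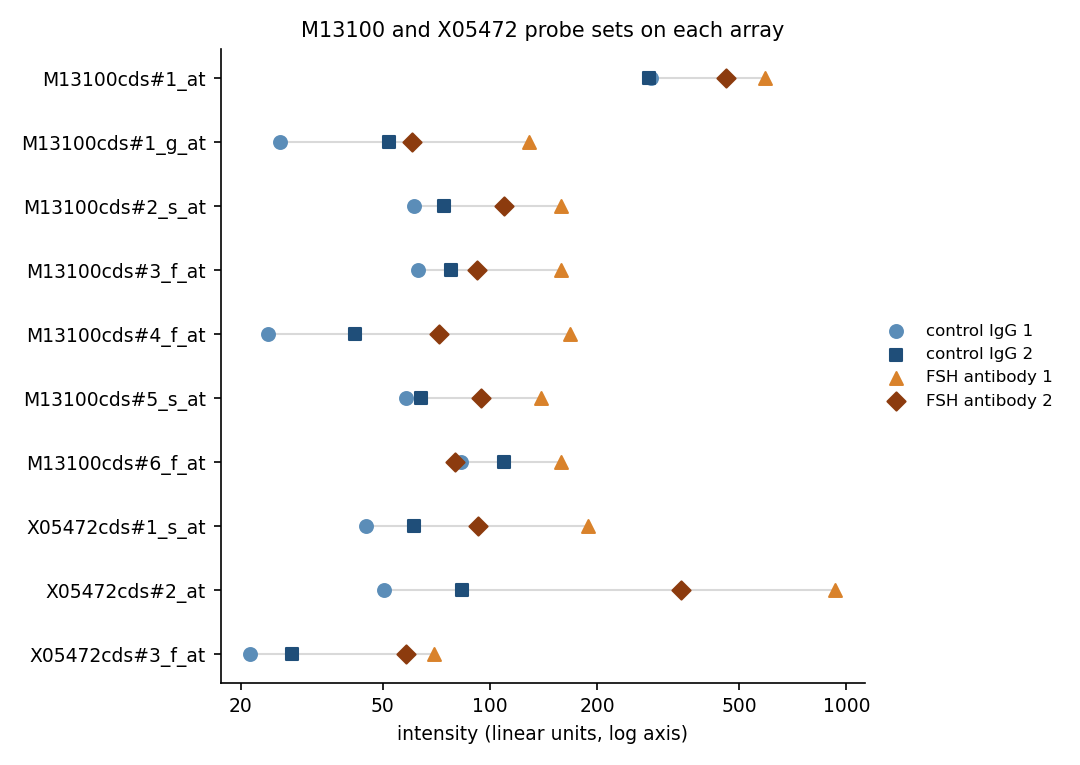
Intensity (log axis) of the 10 M13100 and X05472 probe sets, 1 row each, with a point for each of the 4 arrays. Antibody replicate 1 is the rightmost point in all 10 rows, and antibody replicate 2 lies right of both controls in 9, M13100cds#6_f_at being the exception.

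The 10 log2 differences ran from 0.21 to 2.84 with a median of 0.92, against a median of 0.03 over all tested probe sets. The ratio of means was at least 2 for 5 of the 10 and under 1.5 for 1. All 10 passed the filter on dim probe sets, and the control means alone, at 5.34 or above on the log2 scale, lay above the filter level of 5.30. Antibody values were higher on average in all 10 (55.3% of all tested probe sets), by at least 0.5 in 9 of 10 (2.86%), and in 9 of 10 the antibody arrays lay above the control arrays without overlap, as in 21.9% of all tested probe sets. Nothing is read from these counts, since the group was put forward with this difference known.

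Single arrays bear on these values. Without antibody replicate 1 the median of the 10 was 0.62, and M13100cds#6_f_at turned to −0.22. X05472cds#2_at kept a log2 difference between 2.14 and 3.54 whichever array was left out.

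The antibody arrays differed from each other on these probe sets by more than was usual. Antibody replicate 1 was above antibody replicate 2 on 10 of 10, as on 49.6% of all tested probe sets, and by at least 1.3 times on 8 of 10, against 14.9%. The median size of the gap between the antibody arrays was 0.78 on the log2 scale, where it was 0.20 over all tested probe sets. Between the controls the corresponding sizes were 0.30 and 0.19, with control replicate 2 the higher on 9 of 10 and on 42.9% of all tested. Antibody replicate 1 was the highest of the 4 arrays on all 10, as on 24.7% of all tested probe sets. These gaps run within a treatment. They are given as descriptions, since the 10 probe sets share 2 source entries and each array is 1 RNA sample. Both antibody arrays entered the difference on which the group was put forward, so 24.7% is not a like baseline for the highest array.

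**Figure D2:**
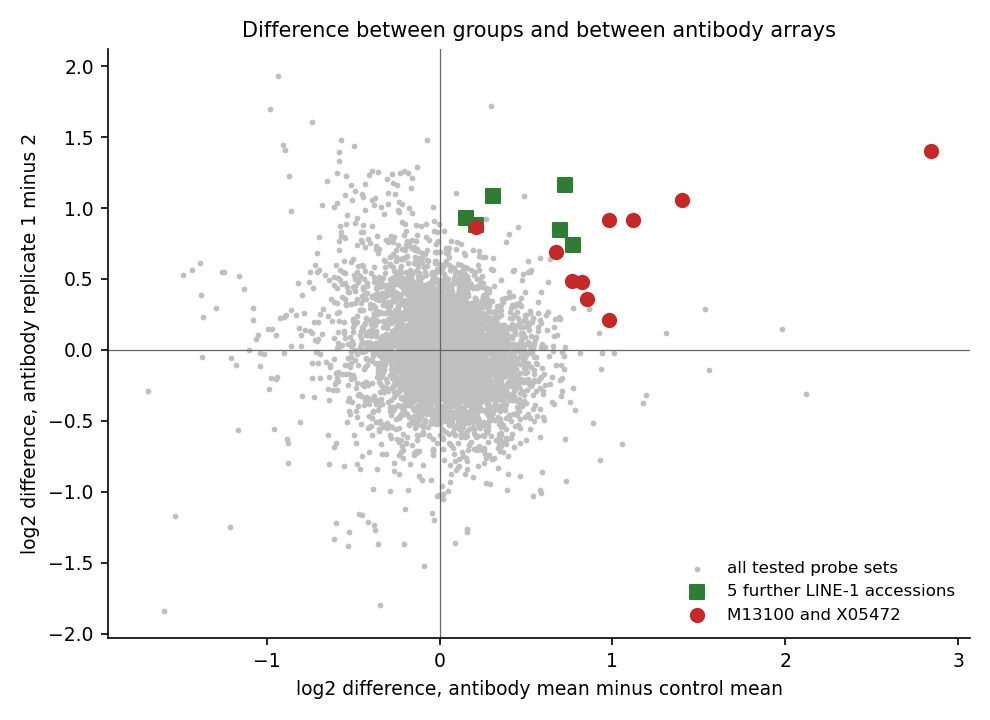
Each point is a probe set, with the log2 difference of antibody mean minus control mean on the horizontal axis and of antibody replicate 1 minus replicate 2 on the vertical axis. The 10 M13100 and X05472 probe sets (circles) and 6 further LINE-1 probe sets (squares) all lie above 0 on both axes, with X05472cds#2_at at 2.84 and 1.40.

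Measured against the control mean, antibody replicate 2 alone was higher by 1.31 to 5.12 times on 9 of the 10, and on M13100cds#6_f_at it was at 0.827 of it. It was 5.12 times the control mean on X05472cds#2_at, 2.37 times on X05472cds#3_f_at and 2.19 times on M13100cds#4_f_at. On the remaining 6 it lay between 1.31 and 1.74 times. The ordering of the 10 by size is therefore not the same on both antibody arrays: X05472cds#3_f_at had the second highest ratio for antibody replicate 2 although its ratio of means, 2.61, was below those of M13100cds#4_f_at at 3.65 and X05472cds#1_s_at at 2.65.

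The array holds further probe sets from entries known as rat LINE-1 sequence, M13101, U83119, X07686, X53581 and X61295. These 6 probe sets were not used to choose the group, but their entries were chosen with earlier results of these data known. Their sequences are also related to those of the group, so they are not an independent check on it. With these limits, they were tested in the fit across all probe sets. None passed by limma with Benjamini-Hochberg adjustment (adjusted p from 0.534 to 0.933), where 0.267% of all tested probe sets passed, while 2 had an unadjusted p under 0.05, where 8.11% of all did. All 6 had a higher antibody mean, as did 55.3% of all tested probe sets, with a median log2 difference of 0.50. The groups did not overlap on 3 of the 6, against 21.9% of all tested.

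Those 3 were X53581cds#3_f_at, X07686cds_s_at and X61295cds_s_at. X53581cds#3_f_at was at 23.6 and 31.7 in the controls and at 80.1 and 41.5 after the antibody, a log2 difference of 0.77 ± 0.26 (limma, adjusted p = 0.534). X07686cds_s_at was at 29.0 and 28.8 in the controls and at 94.8 and 33.6 after the antibody (0.72 ± 0.33, adjusted p = 0.628). Nearly all of that difference lay on antibody replicate 1, since antibody replicate 2 was 1.16 times the control mean. X61295cds_s_at was at 41.1 and 65.3 in the controls and at 131.9 and 66.4 after the antibody (0.70 ± 0.29, adjusted p = 0.580), with antibody replicate 2 at 1.02 times the higher control.

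On the other 3, antibody replicate 2 lay no higher than the higher control. U83119_f_at was at 50.1 and 75.5 in the controls and at 124.0 and 50.1 after the antibody (0.31 ± 0.32, adjusted p = 0.869). M13101cds_f_at was at 54.6 and 99.3 in the controls and at 126.0 and 61.0 after the antibody (0.21 ± 0.31, adjusted p = 0.904). X53581cds#5_f_at was at 49.9 and 74.7 in the controls and at 102.8 and 46.4 after the antibody (0.16 ± 0.30, adjusted p = 0.933). Their order over the arrays is close to that of M13100cds#6_f_at, with antibody replicate 1 highest and control replicate 2 next.

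**Figure D3:**
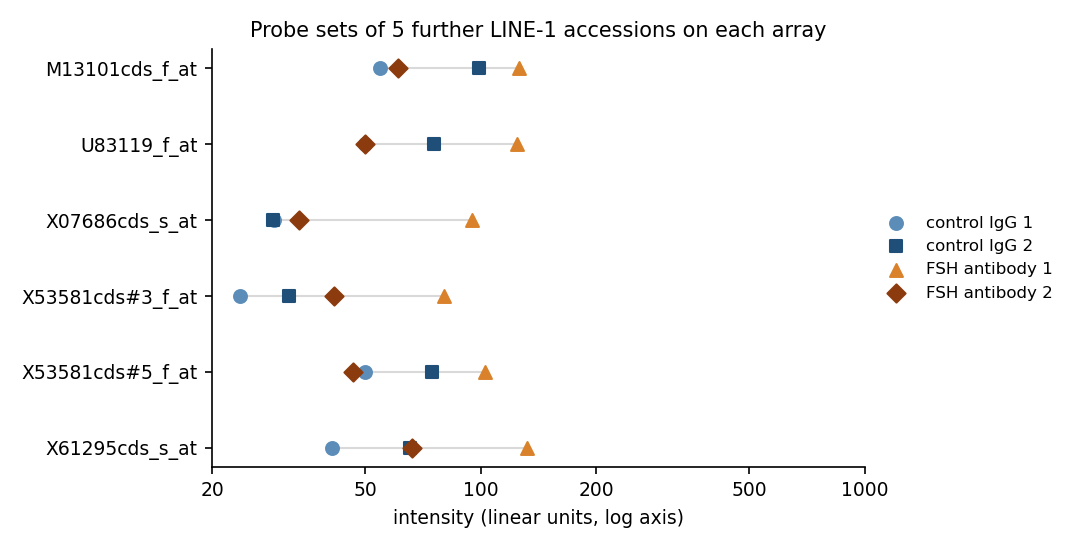
Intensity (log axis) of the 6 probe sets from 5 further LINE-1 entries, 1 row each, with a point for each of the 4 arrays. Antibody replicate 1 is the rightmost point in all 6 rows, while antibody replicate 2 lies right of both controls in 3. On U83119_f_at, control replicate 1 and antibody replicate 2 coincide at 50.1.

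Antibody replicate 1 was thus the highest array on all 16 LINE-1 probe sets, and at least 1.3 times antibody replicate 2 on 14 of them. With antibody replicate 1 left out, the median log2 difference of the 6 further probe sets was −0.04, with 3 of 6 above 0, and none passed. With antibody replicate 2 left out it was 0.98, and 4 of the 6 passed, where 1.77% of all tested probe sets did. Those fits leave 1 antibody array, which is assumed to vary like the controls. The median difference of these 6 thus rested on antibody replicate 1, whereas the 10 M13100 and X05472 probe sets had 9 positive differences and a median of 0.62 on antibody replicate 2 alone. Antibody replicate 2 also entered the difference on which the 10 were put forward, so nothing is read from their staying positive on it. Whether the 2 sets differ from each other was not tested.

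The kind of probe set was also set out, in a grouping made after the values were seen. Among the 16, all 8 that do not end in _f_at had separate groups, with a median log2 difference of 0.84. Antibody values were higher without overlap on 21.9% of all tested probe sets. Of these 8, 6 are from M13100 or X05472 and were put forward with this difference known, so nothing is read from the count. Of the 8 that do end in _f_at, 4 had separate groups, with a median of 0.49. M13100 and X05472 hold both kinds, and there the _f_at probe sets had a median of 0.83 (3 of 4 separate) and the others 0.92. The _f_at probe sets of the further entries had 0.26 (1 of 4 separate), against 0.72 for X07686cds_s_at and 0.70 for X61295cds_s_at. Each further entry holds a single kind, so kind and entry cannot be told apart among them. The 108 tested family probe sets from other sequences, which were not chosen by their difference, had a median log2 difference of 0.03. Of them 20.4% had higher antibody values without overlap. The part of the kind of probe set in the LINE-1 values was not tested.

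The named genes whose profile over the 4 arrays lay nearest to the median profile of the 10 were found by the root mean square difference of centred log2 values, over single-symbol probe sets and 4 arrays. The nearest was Cacna1c, a subunit of the L-type calcium channel, at 0.107. Its intensities were 45.1 and 48.2 in the controls and 102.6 and 80.7 after the antibody. Then came Tle5, a transcriptional corepressor (0.157), Dync1i1, a chain of cytoplasmic dynein (0.182), Cryab, a small heat shock protein (0.200), and Mgst3, a glutathione transferase (0.208). Of these, Dync1i1 came closest in its gap between the antibody arrays, with 70.9 and 43.4, while Mgst3 had 591.3 and 598.8. X05472cds#2_at stood far from this median profile, at 1.04, because its changes were larger, whereas X53581cds#3_f_at lay at 0.0986, nearer than Cacna1c. With 4 arrays such likeness says nothing of shared control.

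**Figure D4:**
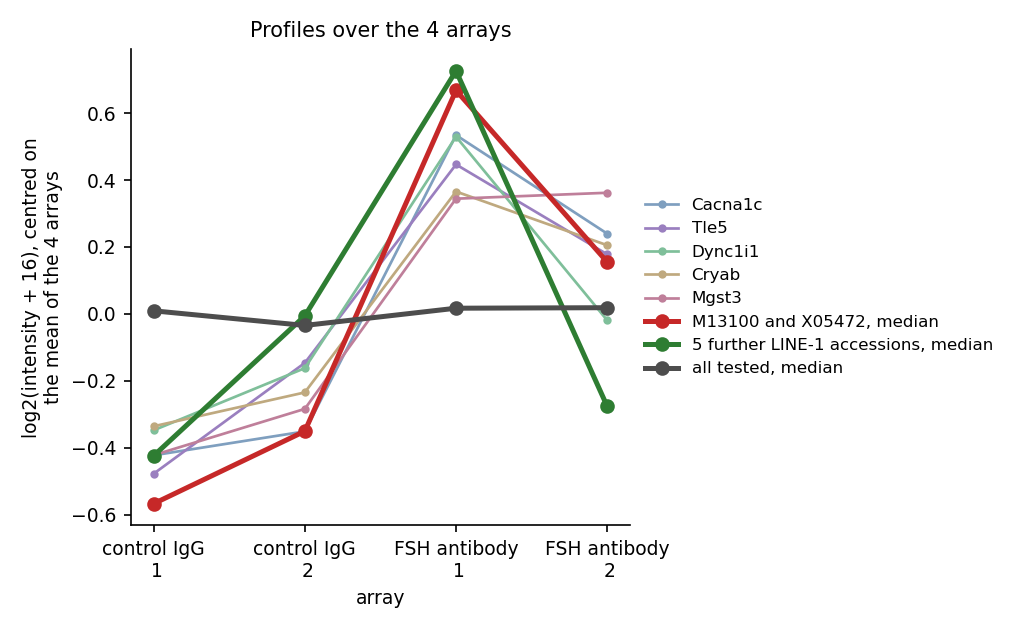
Log2(intensity + 16) on each array, centred on the mean of the 4 arrays, as medians of the M13100 and X05472 probe sets, of the 6 further LINE-1 probe sets and of all tested probe sets, with the 5 nearest named genes. The M13100 and X05472 median runs from −0.57 and −0.35 in the controls to 0.67 and 0.16 after the antibody, and that of the further probe sets returns to −0.28 on antibody replicate 2.

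Genes known for repression of LINE-1 in germ cells, or for DNA methylation and heterochromatin, were little covered. Of 35 listed gene names, 6 were found on the array and 5 of these were bright enough to be tested, on 6 probe sets. None passed by limma after adjustment and none had an unadjusted p under 0.05, where 0.267% and 8.11% of all tested probe sets did. On average 3 were higher and 3 lower, with a median log2 difference of 0.0080. Ddx4, the germ cell RNA helicase of the piRNA granules, was at 294.4 and 325.0 in the controls and at 275.7 and 210.9 after the antibody (−0.34 ± 0.19, adjusted p = 0.694).

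Ehmt2, a histone H3 lysine methyltransferase, had a log2 difference of 0.21 ± 0.16 (limma, adjusted p = 0.824). Dnmt1, the maintenance DNA methyltransferase, gave 0.20 ± 0.18 on AB012214_s_at (limma, adjusted p = 0.848) and −0.02 on its other probe set. The histone deacetylase Hdac2 gave 0.04 and the heterochromatin protein Cbx5 gave −0.04. Apobec1, a cytidine deaminase, was too dim to be tested, with intensities of at most 4.50.

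Meiotic germ cell markers also differed between arrays of 1 treatment, though in another order. The summed intensity of the 10 meiotic markers on the array was 1656 and 2505 in the controls and 1972 and 1302.5 after the antibody. It was highest on control replicate 2, and none of the 9 tested markers was highest on antibody replicate 1. With the antibody 2 of the 9 were higher on average and 7 lower, with a median log2 difference of −0.29, and none passed the test. Ldhc, a lactate dehydrogenase of spermatocytes, had 41.6 and 333.6 in the controls and 143.6 and 41.3 after the antibody. Hspa2, a chaperone of the same cells, had 150.1 and 505.9 in the controls and 358.1 and 142.6 after the antibody. On these probe sets, as on most of LINE-1, control replicate 2 exceeded control replicate 1 and antibody replicate 1 exceeded antibody replicate 2. Both held for 6 of the 9 tested meiotic markers and for 19.9% of all tested probe sets, but not for Sycp1, Sycp2 and Adam2. Sycp1 was at 143.1 and 87.0 in the controls and at 98.4 and 100.1 after the antibody. The part of germ cell content in the LINE-1 values was not tested.

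Spermatid markers summed to 371.3 and 681.6 in the controls and to 512.5 and 447.3 after the antibody, with Tnp1, a transition protein, at 30.1 and 19.5 and at 23.2 and 43.3. Spermatogonial markers summed to 916.5 and 943.5 and to 922.5 and 856.2. Peritubular markers summed to 5129 and 5376 in the controls and to 5805 and 4310 after the antibody, highest on antibody replicate 1. That array was highest on 4 of their 9 tested probe sets, all of Acta2 or Myh11, against 24.7% of all tested. It was also highest on 5 of 10 spermatogonial, 6 of 16 Sertoli, 1 of 10 Leydig and 0 of 6 spermatid probe sets tested. Sums over a marker list follow its brightest probe sets most. Sertoli markers, of which Clu alone read 6776 and 6770 and then 6440 and 7459, summed to 12237 and 12091 and to 11441 and 12242. Among them Inha, the inhibin alpha subunit, was at 1588 and 1224 in the controls and at 804.3 and 682.0 after the antibody on M36453_at, and Shbg, the androgen-binding protein, at 890.7 and 857.2 and at 530.5 and 563.9. Neither passed the test (limma, adjusted p = 0.122 and 0.217). Of the 16 tested Sertoli probe sets 9 were higher on average and 7 lower, the higher ones including Ctsl (0.67 and 0.56) and Amh (0.52), which did not pass either. Leydig markers summed to 2694 and 2736 and to 2134 and 2322. Star, which brings cholesterol into mitochondria, passed the test as lower on AB006007_s_at (−1.49 ± 0.23, limma, adjusted p = 0.0418), as 0.152% of all tested probe sets did. No probe set of the array passed with quantile normalization, with no filter or without either control array, so that this call rests on the settings used. The other Star probe set, AB001349_at, was lower too but did not pass (−1.38 ± 0.25, limma, adjusted p = 0.0653). Of the 10 tested Leydig probe sets 4 were higher on average and 6 lower, with Cyp11a1 at 0.52 and 1 Lhcgr probe set at 0.46, neither of which passed.

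As a measure of RNA integrity, the log2 difference of 3′ over 5′ signal for beta-actin was 1.15 and 0.86 in the controls and 1.20 and 1.10 after the antibody, highest by a narrow margin on antibody replicate 1. For GAPDH it was 0.06 and −0.16 in the controls and −0.07 and −0.08 after the antibody. The part of RNA integrity in the LINE-1 values was not tested.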

How the data were processed

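As deposited, the values are intensities on a linear scale, 1 for each probe set and array. Software and background correction: not given in the sources used here; no detection calls were used. Trimmed by 2% at both ends, the mean was 125 on each array. Values were analysed as log2(intensity + 16). The 59 control probe sets were left out, and those at or above the 40th percentile of mean log2 value were kept. Antibody was set against control by limma 3.58.1 (lmFit, then eBayes with a trend in intensity) under R 4.3.3. P-values were two-sided and Benjamini-Hochberg adjusted over all 5252 probe sets, with a threshold of 0.05; the code was tested on simulated data. Symbols came from the platform annotation, updated by Entrez identifier from RefSeq (GRCr8), with 7018 probe sets having 1 symbol, 308 several and 1473 none. P-values measure the spread between these RNA samples, which may be technical, and the number of arrays limits precision.

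The members, gene lists (35 silencing gene names and the cell type markers) and further LINE-1 entries were chosen with earlier results of these data known. Named genes were all LINE-1 probe sets, the silencing genes (the 3 with the smallest p were given with SE and adjusted p), the 5 nearest profiles and fixed cell markers. The remaining marker lists were macrophage (summed intensity 152.7 to 194.7, none of 3 tested probe sets called), erythroid (1223.5 to 2478, with Alas2 called as lower) and oocyte and granulosa (141.5 to 182.8, none of 2 called). Alternatives were quantile normalization, median centring, constants of 1 and 64, other filters, no intensity trend, the replicate number as a block and each array left out.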

Additional observations from a re-analysis of the deposited data

How the results depend on the processing

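Over all probe sets, against 14 calls there were 0 with quantile normalization and 0 with no filter (smallest adjusted p 0.0615 and 0.224, with 420 and 702 at an unadjusted p under 0.05 by limma), 4 with median centring, and 0 to 154 with 1 array left out. With the replicate number as a block (replicate block) there were 39. Deviations of same-numbered arrays correlated at 0.0039 over probe sets. The labels give these arrays only a shared number, and whether they shared a litter or day is not known. The number of further LINE-1 probe sets called was 0 in all settings except those that left out an array, where it ranged from 0 to 4. The silencing list had 0 calls in every setting run. The median of the 10 M13100 and X05472 probe sets ranged from 0.59 with a constant of 64 to 1.10 with a constant of 1, and from 0.62 to 1.08 with 1 array left out; weighting both entries equally gave 0.97. On leaving out 1 array the log2 difference ranged from −0.22 to 0.64 for M13100cds#6_f_at, from −0.23 to 0.65 for M13101cds_f_at, from −0.23 to 0.85 for U83119_f_at and from −0.31 to 0.62 for X53581cds#5_f_at, turning in direction for each; the other 12 LINE-1 probe sets kept their direction in every setting run. The cause of these changes was not tested. No detection calls were used, so how far each probe set lay above background is not known.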

Other observations

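LINE-1 sequence was frequent among the first few probe sets on which antibody replicate 1 stood out most. Tested probe sets were ranked, after the values had been seen, by how far antibody replicate 1 exceeded the highest of the other 3 arrays on the log2 scale. Of the first 10 in that order 8 were LINE-1 probe sets, 5 of them from M13100 or X05472. Of the first 30 there were 12 and of the first 100 there were 14, where 16 of the 5252 tested probe sets are LINE-1. For M13100 and X05472 nothing is read from these counts, since antibody replicate 1 entered the difference on which that group was put forward. The 16 are also related sequences and not independent. X05472cds#2_at came first, 2.64 times above the next array on this scale, and X07686cds_s_at came next at 2.23 times. The named genes among the first 10 were Glra1, a glycine receptor subunit, at 65.8 on antibody replicate 1 and 8.80 to 22.8 on the other arrays, and Fggy, a carbohydrate kinase, at 150.1 against 50.9 to 82.9. This is a description of 1 RNA sample.

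Several of these repeat probe sets carry gene names in the platform annotation. M13101cds_f_at and U83119_f_at are both paired with Crp, the C-reactive protein, X61295cds_s_at with Serinc1 and Crp together, and X07686cds_s_at with Rpl19l4. The remaining Crp probe set, rc_AA818144_at, was at 36.8 and 30.9 in the controls and at 31.5 and 37.2 after the antibody, a log2 difference of 0.01 ± 0.21 (limma, adjusted p = 0.988), and antibody replicate 1 was not its highest array. A summary that keeps the brightest probe set of each gene would report a LINE-1 probe set under the name of Crp, and the value listed for Rpl19l4 (0.72 ± 0.33) is that of X07686cds_s_at.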
